A study of Mus musculus with 8 samples.

Results

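The genes of transforming growth factor beta (TGF-beta) and bone morphogenetic protein (BMP) signaling were described in nuclear RNA of cortical GABAergic neurons, with and without a dominant-negative thyroid hormone receptor. Members were chosen by a rule on gene names, set with earlier results of these data known. They are protein-coding genes of the GENCODE M21 annotation that encode TGF-beta, BMP, GDF, activin and inhibin chains, their receptors or the Smad proteins. Also included are protein-coding genes of the secreted antagonists noggin, chordin, gremlin and follistatin, and of the follistatin-like proteins. The rule found 59 genes among 55450 in the count tables, of which 21951 are protein-coding. Of these 59 genes, 43 had enough reads to be tested and 16 did not.

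Both groups were juvenile mice in which a Cre driver, active in GABAergic neurons, switched on a fluorescent nuclear protein, and each library came from the sorted nuclei of 1 frozen cortex. The Cre driver itself is not named in the labels. Controls were Thra+/+. Mutants were Thra+/AMI, heterozygous for a Cre-dependent Thra allele whose product is a receptor that acts in a dominant-negative way, and the driver confined this allele to the same neurons. There were 4 controls, numbered 1 to 4, and 4 mutant tables, numbered 6, 7, 8 and 10. The tables of mutants 7 and 10 held the same counts in all 21975 genes with a count, so both were counted as 1 sample, called mutant 7. Which of the 2 animals gave these counts is not known. All comparisons are therefore of 4 controls with 3 mutants.

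Library totals ran from 10747169 to 13804734 counts. Values are read counts scaled to a common library size (CPM), adjusted by TMM, the edgeR method that corrects for library composition, and at the lowest total 1 CPM is about 10.7 reads. Controls 1 and 4 stood apart from each other in a way that followed gene length: the median log2 ratio of control 4 over control 1 was 0.70 for the 2529 tested genes spanning over 100 kb and -0.44 for the 4563 genes under 10 kb. Results are therefore also given without these controls. Thra, whose counts sum both alleles, averaged 114 ± 9.35 CPM over the 4 controls and 87.5 ± 9.39 CPM over the 3 mutants (here and below, ± gives the SD over n = 4 and n = 3 libraries), and its log2 fold change of -0.39 missed the threshold (edgeR adjusted p 0.0543). Pvalb, the calcium-binding protein that marks parvalbumin neurons, went from 41.0 ± 5.91 to 1.81 ± 0.682 CPM (log2 fold change -4.48, edgeR adjusted p 7.63e-07).

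The labelled cell type was checked against marker genes. The 8 GABAergic markers summed to 3785 to 5419 CPM in controls and 3750 to 4708 CPM in mutants, and 7 glutamatergic markers to 76.8 to 143 and 81.9 to 135 CPM. Summed levels of the other lists were 149 to 195 against 166 to 197 CPM for oligodendrocytes and precursors (6 genes), 39.1 to 66.9 against 44.2 to 49.9 for astrocytes (5 genes), and 12.3 to 16.4 against 15.1 to 19.9 for microglia (5 genes). Endothelial and mural markers (6 genes) summed to 56.0 to 145 CPM in controls and 59.8 to 88.1 CPM in mutants, and vascular leptomeningeal markers (5 genes) to 3.81 to 5.08 and 3.58 to 4.38 CPM. Among these genes only the oligodendrocyte gene Mog was called, higher in mutants by 0.93 on the log2 scale. Csf1r of microglia (0.61, edgeR adjusted p 0.055), Pdgfrb of mural cells (0.47, adjusted p 0.217) and Lhx6 of GABAergic neurons (0.23, adjusted p 0.212) missed the threshold. Each was higher in every mutant than in any control, and 22.0% of all tested genes had groups apart. Median log2 fold changes were 0.01 over the tested microglial markers and -0.30 over the endothelial and mural ones. The markers Dlx1, Gfap and P2ry12 were at 0 reads in every library, and their exons lie inside other genes, as described for several members below.

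In this pathway, secreted dimers of the TGF-beta family bring together type II and type I receptors, which are serine/threonine kinases, and the type I receptor phosphorylates a receptor-regulated Smad. Smad2 and Smad3 carry signals of TGF-beta and activin, Smad1, Smad5 and Smad9 carry signals of BMPs, and both sets enter the nucleus with Smad4. Smad6 and Smad7 block the pathway inside the cell, while noggin, chordin, gremlin and follistatin bind ligands outside it. In the developing forebrain BMPs pattern the dorsal midline and influence the fate of neurons and glia, and in the mature brain TGF-beta is best known from microglia, astrocytes and blood vessels.

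Of the 43 tested members, 7 (16.3%) passed the threshold of an adjusted p under 0.05 over all 16448 tested genes in edgeR's quasi-likelihood test, against 9.42% of all tested genes and 10.3% of the tested protein-coding genes. Called lower in mutants were 6 members, Bmp3, Fstl4, Bmp4, Tgfbr2, Smad3 and Smad1, where 4.78% of all genes were called lower. Fstl5 was the 1 member called higher, where 4.63% of all genes were. CPM values of the groups did not overlap for 15 members (34.9%), against 22.0% of all tested genes, and 15 members had an unadjusted p under 0.05 (22.5% of all genes). The median log2 fold change was -0.11 over the members and -0.01 over all tested genes, and 25 of 43 members lay below 0, as did 52.0% of all genes. Without controls 1 and 4, 10 members were called (8 lower, 2 higher, where 16.7% of all genes were called), 6 of them among the 7 named above. Without mutant 7 the count was 3 (Bmp3, Tgfbr2 and Fstl4), in a fit that called 4.35% of all genes. In bulk RNA of sorted nuclei, fewer cells of a type and less RNA per cell cannot be told apart.

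**Figure D1:**
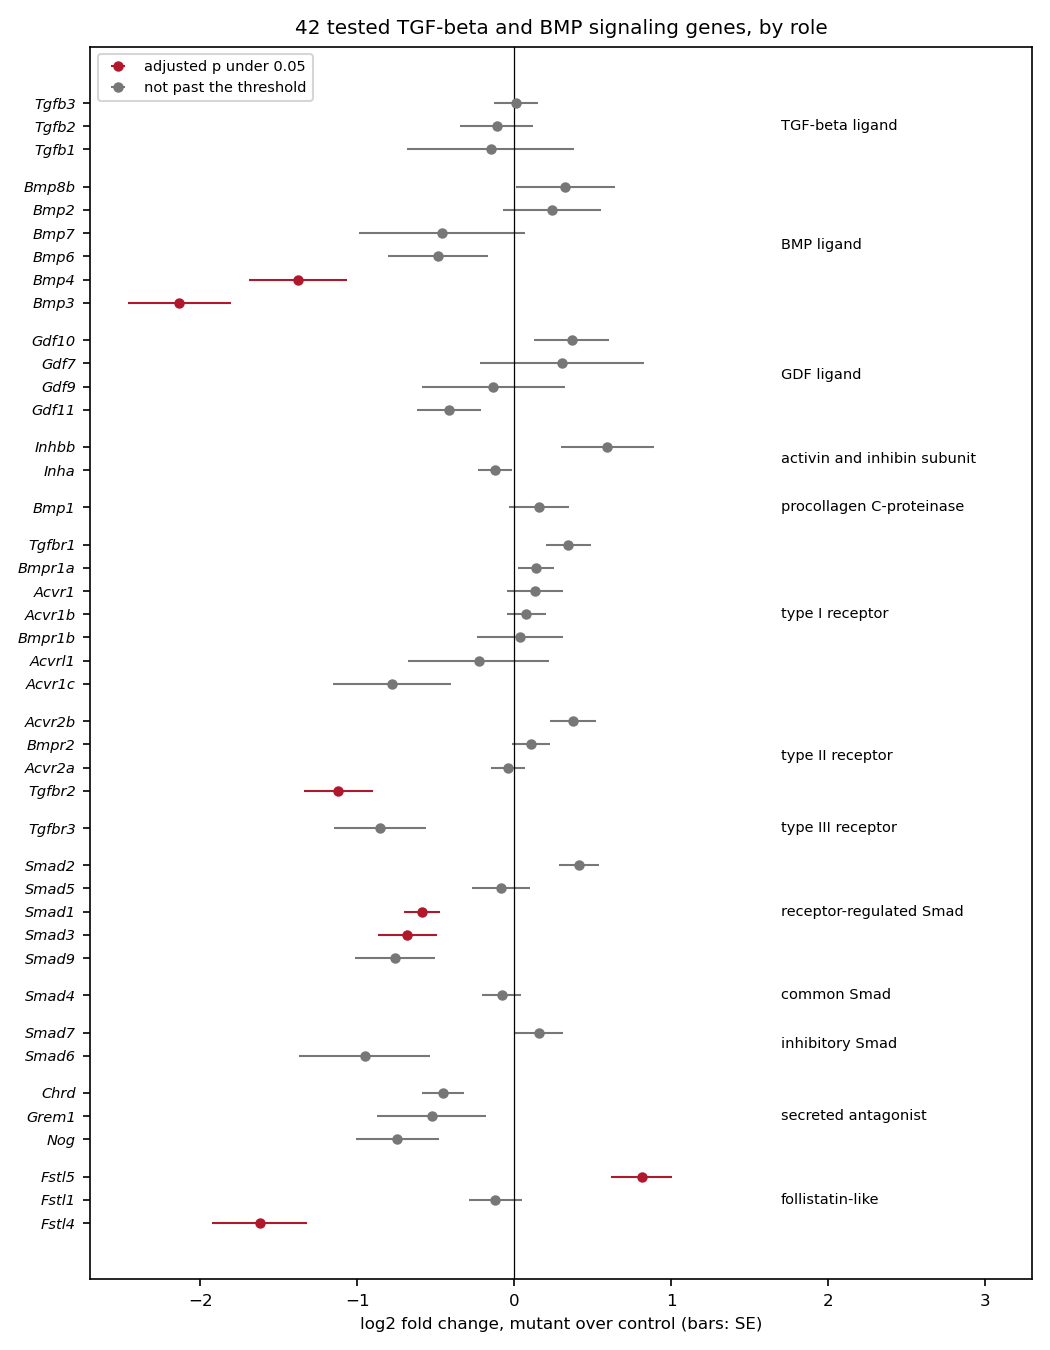
Log2 fold change of mutant over control for 42 of the 43 tested members, grouped by role, with bars for 1 SE and red points for an adjusted p under 0.05. The 6 red points left of 0 lie between -2.13 (Bmp3) and -0.59 (Smad1), and Fstl5 at 0.81 is the red point to the right.

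The promoters of 6 of the 7 called members are shown as the DNA next to which these differences were measured. Bmp3 had no entry, and 30 of the 43 tested members had an entry in the RefSeq promoter table (GRCm38.p6, 37 windows of 250 bases upstream of a start site). They are Bmp4 at chr14:46390670-46390919 (minus strand), Tgfbr2 at chr9:116175364-116175613 (minus strand), Smad1 at chr8:79399429-79399678 (minus strand), Smad3 at chr9:63757995-63758244 (minus strand), Fstl4 at chr11:52764456-52764705 (plus strand) and the upstream and downstream starts of Fstl5 at chr3:76074311-76074560 and chr3:76075333-76075582 (plus strand). Capitals mark matches to AGGTCA, the hexamer bound by nuclear receptors, or to the GC box GGGCGG, on either strand.
Bmp4: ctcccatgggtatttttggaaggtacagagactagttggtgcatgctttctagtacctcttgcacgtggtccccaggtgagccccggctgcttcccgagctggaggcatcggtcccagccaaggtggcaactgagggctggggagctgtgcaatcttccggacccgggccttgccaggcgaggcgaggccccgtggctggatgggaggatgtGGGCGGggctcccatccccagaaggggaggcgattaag
Tgfbr2: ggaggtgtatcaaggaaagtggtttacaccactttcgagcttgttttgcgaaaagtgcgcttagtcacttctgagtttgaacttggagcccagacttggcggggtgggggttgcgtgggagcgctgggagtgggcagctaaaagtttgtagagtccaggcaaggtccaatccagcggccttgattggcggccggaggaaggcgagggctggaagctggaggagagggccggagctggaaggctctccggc
Smad1: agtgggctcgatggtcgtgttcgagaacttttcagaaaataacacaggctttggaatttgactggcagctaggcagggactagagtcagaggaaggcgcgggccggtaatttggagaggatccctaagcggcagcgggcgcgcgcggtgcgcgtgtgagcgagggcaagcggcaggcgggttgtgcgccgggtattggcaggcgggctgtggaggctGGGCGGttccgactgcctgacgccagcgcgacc
Smad3: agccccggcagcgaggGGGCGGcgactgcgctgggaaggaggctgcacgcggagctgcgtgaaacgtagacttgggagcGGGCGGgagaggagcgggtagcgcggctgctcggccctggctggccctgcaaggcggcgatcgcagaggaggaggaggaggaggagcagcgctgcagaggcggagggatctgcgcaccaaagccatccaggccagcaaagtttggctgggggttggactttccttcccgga
Fstl4: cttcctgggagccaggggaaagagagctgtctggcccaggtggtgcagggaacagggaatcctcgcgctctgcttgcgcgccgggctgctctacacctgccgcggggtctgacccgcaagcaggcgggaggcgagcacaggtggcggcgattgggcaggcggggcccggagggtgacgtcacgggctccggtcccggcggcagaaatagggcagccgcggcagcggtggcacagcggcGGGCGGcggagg
Fstl5 upstream start: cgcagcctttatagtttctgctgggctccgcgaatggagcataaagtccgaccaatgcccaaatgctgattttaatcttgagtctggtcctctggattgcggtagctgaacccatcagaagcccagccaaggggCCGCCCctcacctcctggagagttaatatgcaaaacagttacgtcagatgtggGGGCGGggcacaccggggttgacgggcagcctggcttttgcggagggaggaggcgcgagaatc
Fstl5 downstream start: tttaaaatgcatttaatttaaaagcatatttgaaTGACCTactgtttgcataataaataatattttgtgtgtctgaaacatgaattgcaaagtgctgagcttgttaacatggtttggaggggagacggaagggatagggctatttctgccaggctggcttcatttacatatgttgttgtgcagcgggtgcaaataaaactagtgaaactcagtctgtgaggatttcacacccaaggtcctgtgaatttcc
Of these 6 called members, Fstl5 held the hexamer, which starts 216 bases before the downstream start site and reads TGACCT on this strand, and the windows of the other 5 and of the upstream start had no match to it. Of the 37 member windows, 4 held the hexamer (1 each of Bmpr1b, Fstl5, Grem1 and Inha), as did 14.0% of the 32851 windows in the table. The DR4 element, a pair of such hexamers spaced by 4 bases, matched 0 member windows and 0.0152% of all windows. The Smad palindrome GTCTAGAC matched 0 member windows and 0.167% of all, and the BMP-responsive sequence GGCGCC matched 7 of the 37 and 9.59% of all. The GC box, added after seeing the sequences, was in 28 of the 37 member windows (26 of the 30 members) and 32.7% of all windows, and the median GC content was 68.0% in member windows and 52.4% in all. These are matches of letters only. The member windows come from tested members, while the 32851 windows were not limited to genes tested here.

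Among the 15 tested ligands and subunits, 2 were called (13.3%, against 9.42% of all tested genes), both of them BMPs and both lower in mutants. Bmp3 (chr5:98854415-98884396, plus strand), an atypical BMP known for opposing other BMPs in bone, had 11.9, 15.6, 10.05 and 17.7 CPM in controls 1 to 4 and 3.21, 1.47 and 4.61 CPM in mutants 6, 7 and 8. The lowest control was above the highest mutant. Bmp3 fell from 13.8 ± 3.45 to 3.10 ± 1.58 CPM, the lowest log2 fold change of the 43 members at -2.13 (SE 0.33, edgeR adjusted p 0.00156). Reads per library ran from 16 to 219. Bmp3 passed the threshold in all 9 alternative analyses and in all 7 fits that left out 1 library, with values from -2.53 to -1.81, and without controls 1 and 4 the value was -2.03.

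Bmp4 (chr14:46383520-46390669, minus strand), a ligand of the BMP receptors Bmpr1a and Bmpr1b, was a low gene, with 11 to 53 reads per library. Its level was 4.20, 3.10, 3.20 and 3.15 CPM in controls 1 to 4 and 1.10, 1.01 and 1.80 CPM in mutants 6, 7 and 8, so the groups were apart and control 1 lay above the other controls. Bmp4 fell from 3.41 ± 0.53 to 1.30 ± 0.433 CPM (-1.37 on the log2 scale, SE 0.31, edgeR adjusted p 0.0158). The call was lost without mutant 6 (-1.26, adjusted p 0.0828) and without mutant 7 (-1.23, adjusted p 0.0847), and it held without controls 1 and 4 (-1.26). Of its span, 25.92% is shared with the genes Gm15217 and Gm15222.

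The other BMP ligands tested did not pass. Bmp2 was at 4.72 ± 1.97 and 5.60 ± 1.08 CPM (log2 fold change 0.24, edgeR adjusted p 0.725), and Bmp6 at 4.24 ± 1.52 and 3.02 ± 0.392 CPM (-0.48, adjusted p 0.423). Bmp7 and Bmp8b stayed under 2.5 CPM in every library, with log2 fold changes of -0.46 and 0.33. Bmp1, named like a ligand but a protease that matures procollagens and cleaves chordin, was at 41.5 ± 8.58 and 46.2 ± 11.3 CPM (0.16, adjusted p 0.70).

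All 3 TGF-beta ligands were detected and 0 of 3 were called, also by DESeq2 and limma-voom, where edgeR called 9.42% of all tested genes. An unadjusted p under 0.05 was found for 0 of them, against 22.5% of all tested genes. With 3 genes, a count of 0 is not set apart from these shares. Tgfb3 was the highest of them per kilobase of exon (5.77 CPM per kb), though 56.4% of its exon bases lie inside other genes. Reads from those bases may not have been counted. Tgfb3 was at 17.1, 20.3, 19.5 and 20.8 CPM in controls 1 to 4 and 19.4, 17.8 and 21.6 CPM in mutants 6, 7 and 8, so each mutant lay within or just above the controls. Its log2 fold change was 0.01 (SE 0.14, edgeR adjusted p 0.975). Tgfb2 was at 10.7 ± 2.96 and 9.89 ± 1.51 CPM (-0.11), and Tgfb1, better known from microglia and vessels, at 0.788 ± 0.409 and 0.696 ± 0.369 CPM (-0.15).

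Among the GDF ligands and the activin and inhibin chains, 0 of 6 tested members were called by edgeR, DESeq2 or limma-voom. Over all tested genes edgeR called 9.42%. An unadjusted p under 0.05 was found for 0 of the 6, against 22.5% of all tested genes. Inha, the alpha chain of inhibin, had the highest level of all 43 tested members per kilobase of exon (108 CPM per kb), at 172, 158, 167 and 166 CPM in controls 1 to 4 and 143, 144 and 170 CPM in mutants 6, 7 and 8. Mutants 6 and 7 lay below every control and mutant 8 within them (log2 fold change -0.12, SE 0.11, edgeR adjusted p 0.579). The nearest gene, Obsl1 on the opposite strand, lies 625 bases away at a mean of 94.7 CPM. Inhbb, a chain of activin B and inhibin B, was at 2.62 ± 0.778 and 3.96 ± 1.01 CPM (0.59, adjusted p 0.267). Gdf11, a ligand that signals through activin receptors, lay between 5.79 and 7.53 CPM in the controls and between 4.77 and 5.01 CPM in the mutants, without overlap (-0.42, adjusted p 0.255). Gdf10 was at 8.64 ± 2.55 and 11.2 ± 2.19 CPM (0.37, adjusted p 0.414), and Gdf7 and Gdf9 had log2 fold changes of 0.30 and -0.13.

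Not tested were 16 members, all secreted proteins. Their highest read number in any library was 0 for Gdf1, Gdf3, Inhbc and Inhbe, 2 for Bmp10 and Gdf2, 3 for Bmp15, 4 for Gdf5, 5 for Gdf15, 6 for Bmp5 and 8 for Bmp8a and Gdf6. Inhba reached 10 reads, Chrdl1 12, Fstl3 14 and Fst, the activin-binding follistatin, 15. For some of these a low count does not show a low level, because genes lying inside other genes mostly had no reads: of 1489 protein-coding genes whose every exon base lies inside the span of another gene, 1372 (92.1%) were at 0 in all libraries, against 2983 of 14067 genes (21.2%) with no such base. Every exon base of Gdf1 and Inhbe, 98.7% of those of Inhbc and all exons of Inhba lie inside other genes. The share was 60.1% for Gdf5, 47.3% for Fstl3 and 46.7% for Bmp5. Gdf3 shares no stretch with another gene and had 0 reads.

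All 12 receptors were tested and Tgfbr2, the type II receptor that binds TGF-beta itself, was the 1 called. That is 8.33%, against 9.42% of all tested genes. Tgfbr2 (chr9:116084293-116175360, minus strand) had 11.9, 17.0, 10.35 and 17.1 CPM in controls 1 to 4 and 6.18, 7.25 and 6.02 CPM in mutants 6, 7 and 8. The 3 mutants lay close together, below every control. Tgfbr2 fell from 14.1 ± 3.48 to 6.48 ± 0.669 CPM (-1.12 on the log2 scale, SE 0.22, edgeR adjusted p 0.00726), on 77 to 225 reads per library. It passed in all 9 alternatives (-1.13 to -0.96) and in all 7 fits without 1 library, with adjusted p-values up to 0.0471, and it was -1.08 without controls 1 and 4. Tgfbr2 is also expressed by endothelial cells and microglia, whose summed markers were at 56.0 to 145 CPM in controls and 59.8 to 88.1 in mutants for the first (with mural cells), and 12.3 to 16.4 and 15.1 to 19.9 CPM for the second. Their part in the result was not tested.

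The other type II receptors were higher in level than Tgfbr2 per kilobase, at 14.7 CPM per exon kb for Acvr2a, 5.54 for Bmpr2 and 4.58 for Acvr2b against 1.32 for Tgfbr2. This order was the same per kilobase of the gene's unshared span. Acvr2a, an activin receptor, was at 84.7 ± 5.76 and 82.4 ± 7.17 CPM (log2 fold change -0.04, edgeR adjusted p 0.88). Its sign turned with limma-voom, without mutant 6 and without controls 1 and 4 (0.03 in each). Bmpr2, the BMP receptor, was at 96.4 ± 12.7 and 104 ± 7.84 CPM (0.11, adjusted p 0.674). Acvr2b had 14.4, 14.4, 17.1 and 17.9 CPM in controls 1 to 4 and 19.8, 20.1 and 22.1 CPM in mutants 6, 7 and 8, higher in every mutant, but it missed the threshold (0.37, SE 0.14, adjusted p 0.141) except with limma-voom.

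Tgfbr3, the betaglycan that presents TGF-beta and binds inhibin, went from 15.9 ± 7.01 to 8.76 ± 1.74 CPM and did not pass (-0.85, SE 0.30, edgeR adjusted p 0.100). Its controls spread widely, at 10.15, 12.1, 15.5 and 25.9 CPM in controls 1 to 4, and mutants 6, 7 and 8 had 10.09, 6.79 and 9.38 CPM, so that control 1 and mutant 6 nearly met. It passed with DESeq2, limma-voom, the length offset, without control 1, and without controls 1 and 4 (-0.65, adjusted p 0.0261).

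Of the 7 type I receptors, 0 were called by edgeR (against 9.42% of all tested genes), DESeq2 or limma-voom. Of these receptors, 1 had an unadjusted p under 0.05, against 22.5% of all tested genes. That 1 was Tgfbr1, the partner of Tgfbr2, at 17.8, 22.8, 20.8 and 21.4 CPM in controls 1 to 4 and 23.5, 29.8 and 25.6 CPM in mutants 6, 7 and 8 (log2 fold change 0.35, SE 0.14, edgeR adjusted p 0.168). The mutants were above every control, the opposite side from Tgfbr2, and Tgfbr1 passed in 0 of 9 alternatives. Acvr1, the highest type I receptor per exon kilobase (14.9 CPM per kb), was at 69.1 ± 19.4 and 76.0 ± 5.45 CPM (0.14, adjusted p 0.727). Per kilobase of unshared span Acvr1 (0.406) lay below Acvr1b (0.973) and Bmpr1a (0.557). Bmpr1a, a BMP receptor, was at 48.9 ± 2.15 and 53.9 ± 6.01 CPM, and Acvr1b, an activin receptor, at 37.6 ± 4.34 and 39.7 ± 2.42 CPM. Bmpr1b (0.04), Acvr1c (-0.78) and the endothelial receptor Acvrl1 (-0.23) stayed under 11 CPM in every library, and their adjusted p-values were 0.251 or more.

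The receptor-regulated Smads, which carry the signal to the nucleus, held 2 calls among 5 members (9.42% of all tested genes were called). Of the 5, 4 had an unadjusted p under 0.05, against 22.5% of all tested genes. Smad1 (chr8:79338395-79399518, minus strand), of the BMP branch, had 70.35, 83.1, 79.8 and 94.7 CPM in controls 1 to 4 and 54.9, 53.9 and 55.0 CPM in mutants 6, 7 and 8. The mutants differed among themselves by little more than 1 CPM and lay below every control. Smad1 fell from 82.0 ± 10.0 to 54.6 ± 0.613 CPM (-0.59 on the log2 scale, SE 0.12, edgeR adjusted p 0.00755), on 587 to 1174 reads per library. The call held in all 9 alternatives, was -0.58 without controls 1 and 4, and was lost without mutant 7 (-0.57, adjusted p 0.0515).

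Smad3 (chr9:63646767-63757994, minus strand), of the TGF-beta and activin branch, had 17.45, 16.0, 16.1 and 24.1 CPM in controls 1 to 4 and 9.78, 12.4 and 12.3 CPM in mutants 6, 7 and 8. Control 4 was the highest library and the groups did not overlap. Smad3 fell from 18.4 ± 3.86 to 11.5 ± 1.48 CPM (log2 fold change -0.68, SE 0.19, edgeR adjusted p 0.0401). This call was near the threshold: it was lost without controls 1 and 4 (-0.49, adjusted p 0.0608), without control 4 and mutant 8 (-0.58, adjusted p 0.0931), and without control 2, control 3 or any 1 of mutants 6, 7 and 8 (-0.74 to -0.58, adjusted p 0.058 to 0.178).

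Smad2, the other Smad of that branch, lay on the other side, at 32.4, 32.6, 38.7 and 39.8 CPM in controls 1 to 4 and 50.1, 51.8 and 41.8 CPM in mutants 6, 7 and 8. All mutants were above all controls, but Smad2 missed the threshold (log2 fold change 0.42, SE 0.13, edgeR adjusted p 0.0659). It passed in 5 of 9 alternatives and without control 4, and without controls 1 and 4 it was 0.42 (adjusted p 0.0194). Smad9, of the BMP branch, was at 6.11, 6.73, 9.21 and 11.2 CPM in controls and 4.85, 4.13 and 5.71 CPM in mutants, without overlap (-0.76, SE 0.25, adjusted p 0.0876). Smad9 passed in 2 of 9 alternatives, limma-voom and the length offset, and without control 1. Smad5, of the BMP branch too, was at 19.9 ± 3.57 and 18.8 ± 3.76 CPM (-0.08, adjusted p 0.854). Its groups overlapped, with mutant 6 (14.5 CPM) below every control and mutants 7 and 8 among them.

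Smad4, the shared partner, was at 51.6 ± 6.72 and 48.8 ± 2.35 CPM (log2 fold change -0.08, edgeR adjusted p 0.778). Of the inhibitory Smads, Smad7 was at 12.7 ± 1.14 and 14.1 ± 0.901 CPM (0.16, adjusted p 0.613). Smad6 was low, with 1.74, 1.28, 1.37 and 0.726 CPM in controls 1 to 4 and 0.626, 0.643 and 0.704 CPM in mutants, where control 4 lay just above the mutants (-0.95, SE 0.42, adjusted p 0.199).

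**Figure D2:**
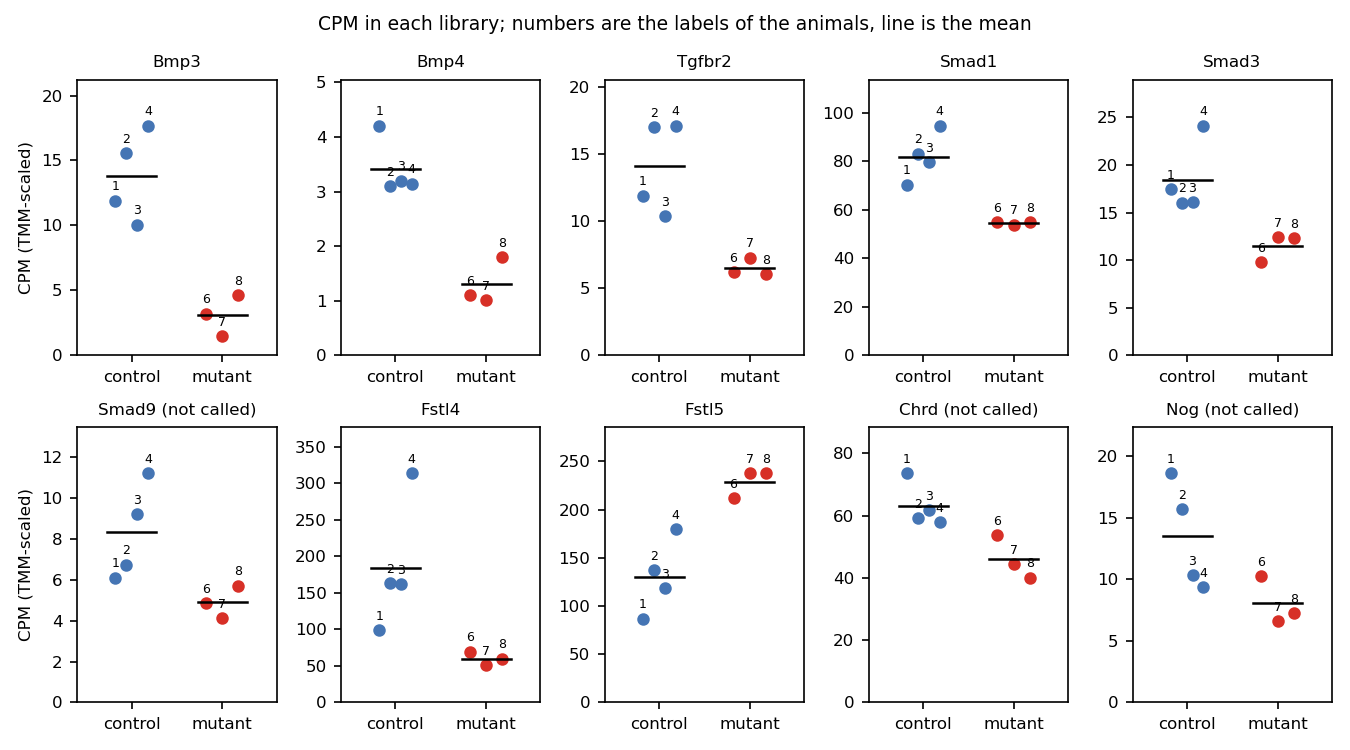
TMM-scaled CPM of 10 members in each library, controls in blue and mutants in red, with the animal's number beside each point and a line at the group mean. The groups are apart in every panel but that of Nog, and control 4 is the highest control for Bmp3, Tgfbr2, Smad1, Smad3, Smad9, Fstl4 and Fstl5.

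Of the 7 tested antagonists and follistatin-like genes, 2 were called (28.6%, against 9.42% of all tested genes). Both were follistatin-like genes, in opposite directions. These encode secreted proteins with a follistatin domain. Fstl4 (chr11:52764634-53188538, plus strand) had 99.1, 163, 162 and 314 CPM in controls 1 to 4 and 69.4, 50.95 and 59.7 CPM in mutants 6, 7 and 8. The controls spread over a wide range with control 4 far above and control 1 nearest to the mutants. Fstl4 fell from 185 ± 91.4 to 60.0 ± 9.23 CPM (-1.62 on the log2 scale, SE 0.30, edgeR adjusted p 0.00532). It passed in 8 of 9 alternatives and in all 7 fits without 1 library, at -1.24 without control 4 and -1.44 without controls 1 and 4, and it was lost when no filter on low counts was used (-1.62, adjusted p 0.132).

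Fstl5 (chr3:76074270-76710019, plus strand) had 86.8, 137, 118 and 179 CPM in controls 1 to 4 and 212, 238 and 238 CPM in mutants 6, 7 and 8. Each mutant was above control 4, the highest control. Fstl5 rose from 130 ± 38.7 to 229 ± 15.1 CPM (0.81 on the log2 scale, SE 0.19, edgeR adjusted p 0.0196). The call held in all 9 alternatives (0.81 to 0.98; 0.84 without controls 1 and 4) but was lost on leaving out control 2, control 3 or a single mutant (0.77 to 0.86, adjusted p 0.0563 to 0.0886). Fstl1 was at 26.7 ± 4.84 and 24.6 ± 4.37 CPM (-0.12, adjusted p 0.752).

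Of the 4 tested secreted antagonists, edgeR called 0, against 9.42% of all tested genes. An unadjusted p under 0.05 was found for 2 of them, against 22.5% of all tested genes. DESeq2 called 1 of the 4 and limma-voom 2, where limma-voom called 3134 of the 16448 tested genes. Chrd, chordin, which binds BMPs, had 73.7, 59.2, 61.7 and 57.8 CPM in controls 1 to 4 and 53.7, 44.4 and 40.1 CPM in mutants 6, 7 and 8. It was lower in every mutant than in any control and just missed the threshold (log2 fold change -0.45, SE 0.13, edgeR adjusted p 0.0521). Chrd passed in 5 of 9 alternatives, and without controls 1 and 4 it was -0.39 (adjusted p 0.0205). Nog, noggin, the high-affinity BMP antagonist, had 18.6, 15.7, 10.35 and 9.36 CPM in controls 1 to 4 and 10.2, 6.61 and 7.27 CPM in mutants 6, 7 and 8, so that mutant 6 lay above control 4. It was not called (-0.75, SE 0.26, adjusted p 0.107) except with limma-voom, the length offset, without control 4, and without controls 1 and 4 (-0.69, adjusted p 0.029). Grem1, gremlin, which binds BMPs too, had a log2 fold change of -0.53 (adjusted p 0.424).

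**Figure D3:**
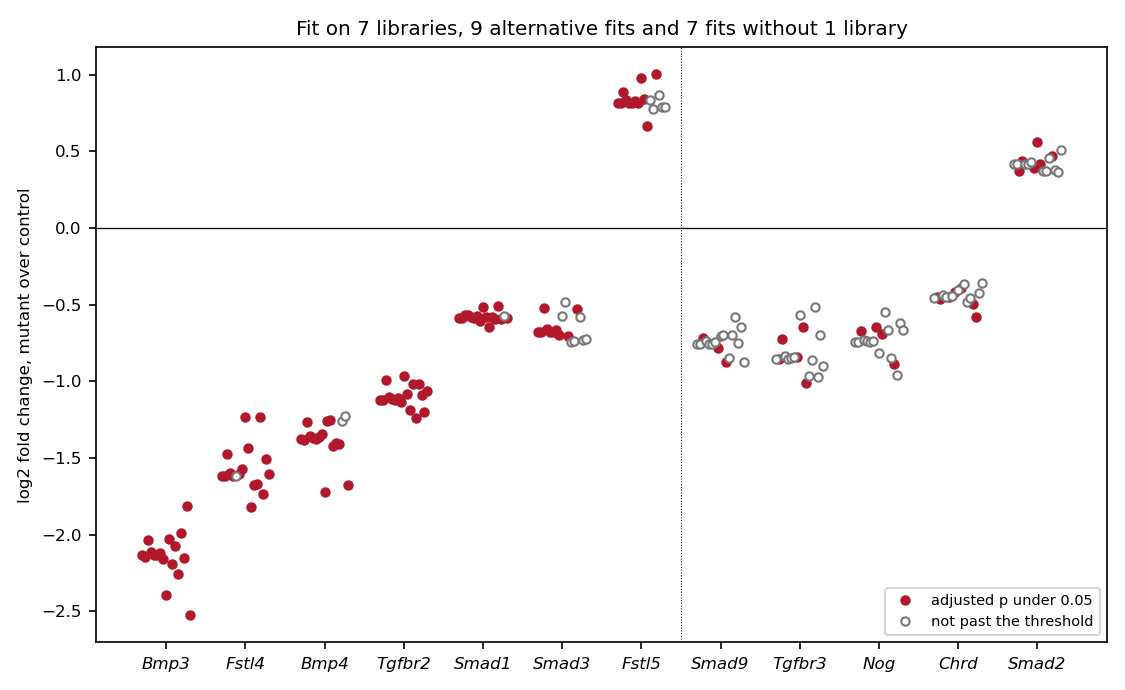
Log2 fold change of mutant over control for the 7 called members and 5 that were not called, in the fit on 7 libraries, 9 alternative fits and 7 fits without 1 library, filled where the adjusted p was under 0.05. Every point of the 7 called members keeps its side of 0. Bmp3 and Tgfbr2 are filled throughout, and Bmp4, Smad1, Smad3, Fstl4 and Fstl5 each have open points.

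The length of a gene moved with the spread among controls. Across the 43 tested members, the log2 ratio of control 4 over control 1 rose with genomic span (Spearman's rho 0.58 across genes, which share these libraries and are not independent, against 0.61 across all tested genes). Its median was 0.99 for the 8 members over 100 kb and -0.09 for the 8 under 10 kb. Fstl4 (424 kb) had 1.66, Tgfbr3 1.31, Bmpr1b 1.13 and Fstl5 (636 kb) 1.04. The fold change between genotypes had a rho of -0.07 with span across the members and 0.08 across all genes. Fstl4 and Fstl5, the longest called members, lay on opposite sides, and with an offset for gene length Fstl4 was at -1.57.

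**Figure D4:**
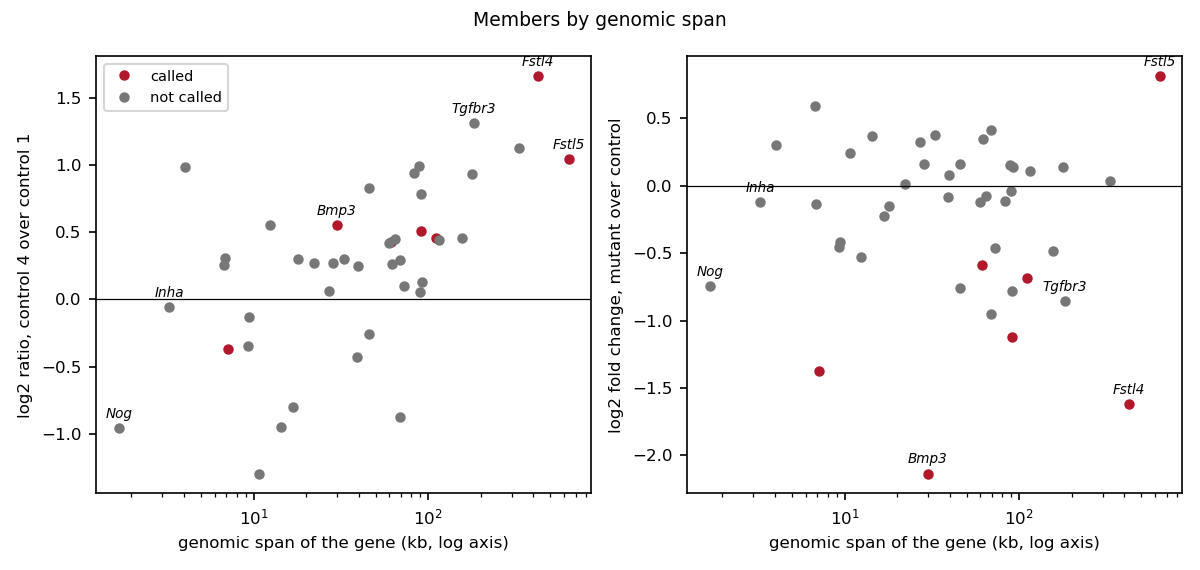
Genomic span of the 43 tested members (kb, log axis) against the log2 CPM ratio of control 4 over control 1 (left) and against the log2 fold change between genotypes (right), with called members in red. Points climb with span on the left, to 1.66 for Fstl4, and show little trend on the right.

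Levels within the set depended on the length they were divided by. Per kilobase of exon, Inha (108 CPM per kb) was followed by Fstl4 (30.0), Fstl5 (18.6), Acvr1 (14.9), Acvr2a (14.7), Smad4 (13.6) and Smad1 (11.2). Per kilobase of unshared genomic span, introns included, Inha was again first (48.6), followed by Chrd (7.09) and Nog (6.59), while Fstl4 was in place 24 (0.316) and Fstl5 in place 26 (0.273).

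Further genes of the pathway were taken from 5 lists, 66 of whose 81 genes were tested. Called were 13 (19.7%, against 9.42% of all tested genes), 5 lower and 8 higher. The lists were chosen with earlier results of these data known, so this share is a description only. The list of other ligands and of genes that activate or store ligands had 5 of 16 called. Ltbp2, a matrix protein related to the carriers of latent TGF-beta, had 18.1, 25.9, 28.0 and 20.0 CPM in controls 1 to 4 and 4.54, 4.50 and 2.27 CPM in mutants 6, 7 and 8, the lowest control standing well above the highest mutant (log2 fold change -2.61, SE 0.26, edgeR adjusted p 8.84e-05). Ltbp3, a carrier of latent TGF-beta, fell from 60.7 ± 5.18 to 35.1 ± 7.85 CPM (-0.79, adjusted p 0.00531), while Ltbp4, another carrier, rose from 44.2 ± 4.92 to 71.6 ± 1.44 CPM (0.69, adjusted p 0.00226). Thbs1, thrombospondin-1, an activator of latent TGF-beta, had 4.04, 3.93, 5.40 and 2.26 CPM in controls and 15.3, 17.1 and 15.7 CPM in mutants (2.03, SE 0.24, adjusted p 0.000275). Fbn2, a microfibril protein that binds ligand complexes, rose from 23.6 ± 2.01 to 51.1 ± 4.61 CPM (1.11, adjusted p 0.000167). These 5 calls held in every alternative and in every fit without 1 library.

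Among 6 tested co-receptors and related receptors, 2 were called (33.3%, against 9.42% of all tested genes). Neo1, neogenin, the receptor of repulsive guidance molecules, rose from 70.1 ± 8.46 to 101 ± 1.66 CPM (log2 fold change 0.53, edgeR adjusted p 0.0102), a call lost without mutant 6 or mutant 7 (0.53 in both, adjusted p up to 0.054), and 33.76% of its span is shared. Rgma, a BMP co-receptor and ligand of neogenin, fell from 6.44 ± 2.18 to 3.02 ± 0.624 CPM (-1.10, adjusted p 0.0397). This call was lost on leaving out control 4 together with mutant 8 (-0.90, adjusted p 0.125) or any single library other than control 1 (adjusted p 0.0503 to 0.176). The list of other secreted antagonists and related proteins had 2 of 11 called, both higher, and their action on ligands was not tested here. Bmper, a BMP-binding protein, had 17.5, 20.4, 18.95 and 22.3 CPM in controls 1 to 4 and 39.5, 35.5 and 36.2 CPM in mutants 6, 7 and 8, far apart (0.90, SE 0.13, adjusted p 0.000972). Kcp, a related chordin-like protein, rose from 7.86 ± 1.04 to 14.5 ± 2.79 CPM (0.89, adjusted p 0.0111), a call lost without mutant 6 (0.72, adjusted p 0.0796).

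Inside the cell, 20 modulators of Smads and receptors were tested, such as the ubiquitin ligases Smurf1 and Smurf2 and the repressors Ski and Skil. Called by edgeR were 0 of the 20 (against 9.42% of all tested genes), with 2 at an unadjusted p under 0.05 (against 22.5%). DESeq2 called 0 of the 20, limma-voom 1, and the fit without controls 1 and 4 called 2. Of 13 tested genes known to respond to the pathway, 4 were called (30.8%, against 9.42% of all tested genes), 2 in each direction. Of these 4, 3 are described. Cdkn1a, the cell-cycle inhibitor p21, rose from 8.51 ± 2.57 to 17.7 ± 4.28 CPM (log2 fold change 1.06, edgeR adjusted p 0.0161). It was lost without control 3, mutant 7, mutant 8, or control 4 and mutant 8 together (0.86 to 1.11, adjusted p up to 0.108).

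Tgfbi, a TGF-beta-induced matrix protein, fell from 4.39 ± 0.631 to 2.25 ± 0.431 CPM (log2 fold change -0.96, edgeR adjusted p 0.0382), and Hey1, a transcription factor that responds to BMP and Notch, from 14.0 ± 2.79 to 8.66 ± 1.03 CPM (-0.69, adjusted p 0.0469). Both calls were near the threshold. Tgfbi was lost without controls 1 and 4 (-0.85, adjusted p 0.0754), and held in 2 of the 7 fits without 1 library, those without control 2 or control 4. It was also lost without control 4 and mutant 8 (-1.09, adjusted p 0.0713). Hey1 held in 1 of the 7, that without control 4, and was lost with upper-quartile scaling (-0.67, adjusted p 0.0554) and with a filter at 1 CPM (-0.68, adjusted p 0.0521).

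**Figure D5:**
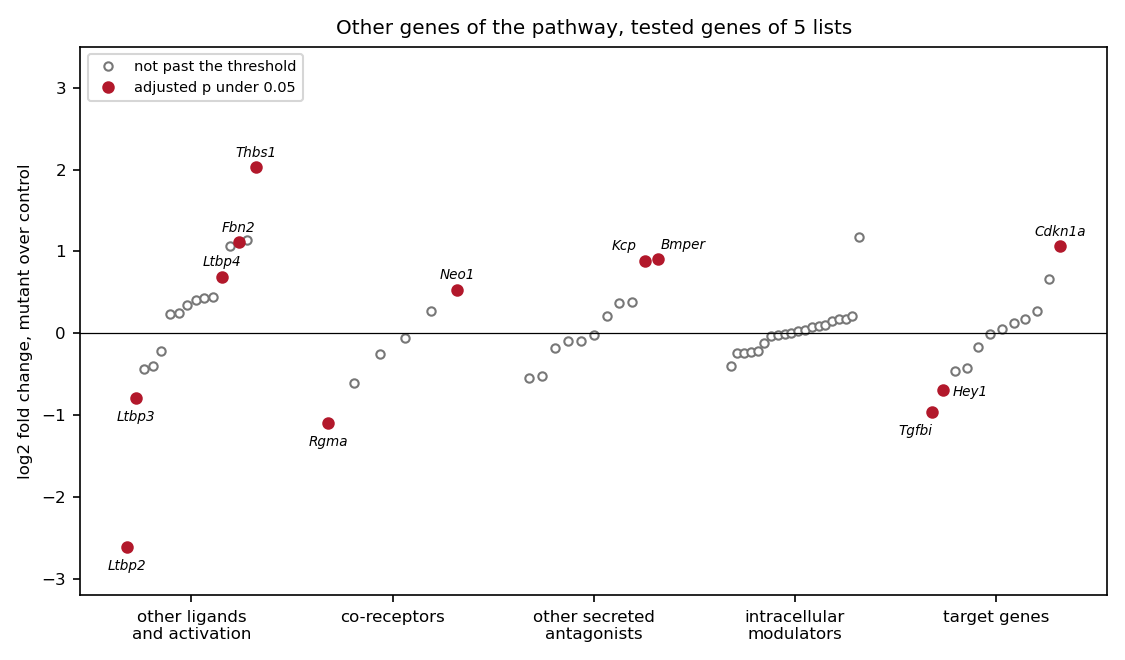
Log2 fold change of mutant over control for 65 of the 66 tested genes of 5 further pathway lists, in rank order within each list, filled and named where the adjusted p was under 0.05. Filled points run from -2.61 for Ltbp2 to 2.03 for Thbs1, and no point of the intracellular modulators is filled.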

How the data were processed

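The members and lists, the alternatives and the rule for named genes were chosen with earlier results of these data known. Per the labels' protocols, nuclear RNA was converted to cDNA with SMART-Seq v4, made into Nextera XT libraries and sequenced on an Illumina NextSeq. Molecular identifiers are not mentioned, so reads may not be independent molecules. Each deposited table lists raw read counts by gene, which the authors did not normalize as far as the labels say. Bowtie2 2.5.3 and GRCm38 (mm10) are listed in the submitters' processing notes, and the counting program is not given in the sources used here. Gene symbols and coordinates came from GENCODE M21 (GRCm38).

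Counts were fitted in R 4.3.3 with edgeR 4.0.16: filterByExpr (least count 10, least total 15), TMM, robust quasi-likelihood test with genotype as the only term, two-sided, Benjamini-Hochberg adjustment over all tested genes, calls at an adjusted p under 0.05. The SE is the log2 fold change divided by the square root of F. Alternatives were DESeq2 1.42.0, limma 3.58.1 voom with quality weights, other scaling, other filters, an offset for genomic length and the removal of libraries. Named with values were called members, members with an unadjusted p under 0.05, the highest member per kb of each role, called genes of the 5 lists, Thra and Pvalb; members outside this rule are given to account for every gene. The libraries came from separate cortices. A few individual results are not reported here, in text or figures, though the counts include them.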

Additional observations from a re-analysis of the deposited data

Results flagged for a closer look

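The 4 controls were searched for a library far from the other 3, over 56 genes (the 43 tested members and 13 called genes of the further lists). Chance alone at 1 in 20 would give about 2.8 such values, and 2 were found. Bmp4 was at 4.20 CPM in control 1 and between 3.10 and 3.20 CPM in the other controls, a gap of 0.911 of the range. Bmp8b was at 1.13 CPM in control 2 and between 1.90 and 2.02 CPM in the other controls, a gap of 0.872 of the range.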

How the results depend on the processing

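The number of members called was 12 (10 lower, 2 higher) with the length offset and 13 (10 lower, 3 higher) with limma-voom and quality weights, from 7 to 10 in the other 7 alternatives, and from 3 (without mutant 7) to 10 (without control 4) in fits without 1 library. Over all genes the calls were 2703 with the length offset, 3134 with limma-voom, 2778 without controls 1 and 4, and 734 (without mutant 7) to 2347 (without control 4) without 1 library. Both counts thus varied with which library was left out, and each of those fits had 1 library fewer. Of the further lists, modulators inside the cell had 1 call with limma-voom, 1 without control 4 and mutant 8, 2 without controls 1 and 4, and 0 to 1 without 1 library. Other antagonists and related proteins had 5 calls with limma-voom and 5 without controls 1 and 4, and 1 to 4 without 1 library. Target genes had 2 with a filter at 1 CPM and 2 without control 4 and mutant 8, and 1 to 6 without 1 library. Co-receptors had 1 without control 4 and mutant 8 and 0 to 2 without 1 library, and ligands and activation 5 to 7. The causes were not tested.

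The sign of the log2 fold change turned in at least 1 fit for 11 members, all of them not called: Acvr2a, Smad4 and Tgfb3, and, among members given only to account for every gene, Acvrl1, Bmpr1b, Fstl1, Gdf7, Gdf9, Smad5, Tgfb1 and Tgfb2. Acvr2a was 0.0308 with limma-voom, 0.0333 without controls 1 and 4, and -0.0916 (without mutant 7) to 0.0257 (without mutant 6) without 1 library. Smad4 ran from -0.1430 (without control 1) to 0.0044 (without control 4) without 1 library. Tgfb3 was -0.0029 with the length offset, -0.0283 without control 4 and mutant 8, -0.0227 without controls 1 and 4, and -0.0558 (without mutant 8) to 0.0811 (without mutant 7) without 1 library. No paired analysis was possible because controls and mutants share no replicate number in the labels. Members under about 2 CPM rest on few reads, so differences in them are hard to detect at this depth.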

Other observations

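The 4 Id genes, inhibitors of basic helix-loop-helix factors and textbook targets of BMP signaling, were not called by edgeR. Id2 was at 59.0 ± 16.6 CPM in controls and 42.9 ± 5.23 CPM in mutants (log2 fold change -0.46, adjusted p 0.171), and Id3 at 12.8 ± 3.37 and 9.55 ± 0.559 CPM (-0.42, adjusted p 0.266). Id1 was at 6.18 ± 1.52 and 5.49 ± 1.73 CPM (-0.17, adjusted p 0.787). Id4 lay on the other side, at 23.7, 17.3, 16.1 and 11.3 CPM in controls 1 to 4 and 22.8, 35.8 and 23.0 CPM in mutants 6, 7 and 8 (0.67, adjusted p 0.105). Pmepa1, an inhibitor induced by TGF-beta, was at 48.8 ± 12.5 and 48.6 ± 5.11 CPM (adjusted p 0.994). The Id genes and Pmepa1 were named here after their values were seen.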
